A study of Mus musculus with 35 samples.

Results

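Naive CD8 T cells of the spleen were compared with CD8 single positive cells of the thymus in WT mice, over every gene with enough counts, so the comparison spans the last maturation of the CD8 T cell and its export from the thymus. It rested on 7 of the 35 libraries of the series, chosen by their labels: 4 WT naive and 3 WT thymus libraries. The series measured polyadenylated RNA of sorted CD8 T cells. The mice were of the C57BL/6 strain, all bore the Lcre+/- transgene, and their Dot1L gene was wild type, heterozygous floxed or homozygous floxed. WT naive cells were sorted from spleen as CD44 negative, and WT thymus cells were CD8 single positive. Both were Lcre+/- with Dot1L wt/wt, so the controls carried the Cre transgene too. The labels do not spell out the promoter that drives the Cre, give no ages, and do not tell whether each replicate was its own animal. The p-values therefore measure the spread between libraries within a group, estimated over all 35 libraries of the series in 9 groups. The same 2 subsets of Het (Dot1L fl/wt, 4 naive and 4 thymus libraries) and KO mice (Dot1L fl/fl, 4 and 4) are used below for comparison.

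A developing thymocyte becomes a CD8 single positive cell when its receptor recognises self peptide on major histocompatibility complex (MHC) class I molecules. Over the following days it turns off its receptor gene recombination machinery, changes its chemokine and homing receptors, and leaves through blood vessels along a gradient of sphingosine 1-phosphate. The transcription factor Klf2 is known to turn on the sphingosine 1-phosphate receptor S1pr1 in mouse thymocytes, and mice whose T cells lack either Klf2 or S1pr1 retain mature cells in the thymus.

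Total counts were 4809509 to 10333714 in the WT naive and 7492258 to 16228232 in the WT thymus libraries. Levels are given as CPM, counts scaled to the library total with TMM factors. CPM are not divided by gene length, so they are compared between libraries and not between genes. Some transcripts known to be abundant in these cells had few counts in every library, among them Cd8a, B2m, Cd3d and Il7r. A count here therefore cannot be read as a level of the transcript in the cell. Of 12 CD8 T cell marker genes all 12 were tested, Cd4 had at most 2 counts in any of the 7 libraries, and the epithelial markers Foxn1, Psmb11 and Aire of the thymus had none. The summed thymic stroma markers that were tested (2 of 13) ran from 3.25 to 4.83 CPM in naive and from 5.09 to 7.46 CPM in thymus libraries, and Col1a1, a collagen gene, was called lower in naive cells (-0.98, adjusted p = 0.0338), a call lost without naive replicate 1, 2 or 4 or thymus replicate 1. The naive group held 2 libraries from males and 2 from females, and the thymus group 2 and 1, by Xist and Y-linked transcripts. On the first principal component, with 60.7% of the variance, the 4 naive libraries lay from -40.8 to -26.7 and the 3 thymus libraries from 42.8 to 47.5. Dot1l itself (chromosome 10) stood at 47.2, 50.8, 51.6 and 48.3 CPM in WT naive, against 69.6, 70.4 and 61.1 CPM in WT thymus libraries. It was lower in naive cells (log2 fold change -0.44 ± 0.09, adjusted p = 8.10e-05, edgeR).

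Of 10296 genes tested, 3319 (32.2%) differed between WT naive and WT thymus libraries at an adjusted p under 0.05 by edgeR's quasi-likelihood test, and these are the genes called below. Of them 1575 (15.3% of the genes tested) were higher and 1744 (16.9%) lower in naive cells. The counts of each gene list below stand against these shares. At a log2 fold change of at least 1 in either direction, 389 genes were higher and 649 lower. The library values of the 2 groups did not overlap for 3865 genes (37.5%), of which 2973 were called. The median log2 fold change of all genes was 0.03. Every log2 fold change is naive over thymus and is given ± its standard error.

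**Figure D1:**
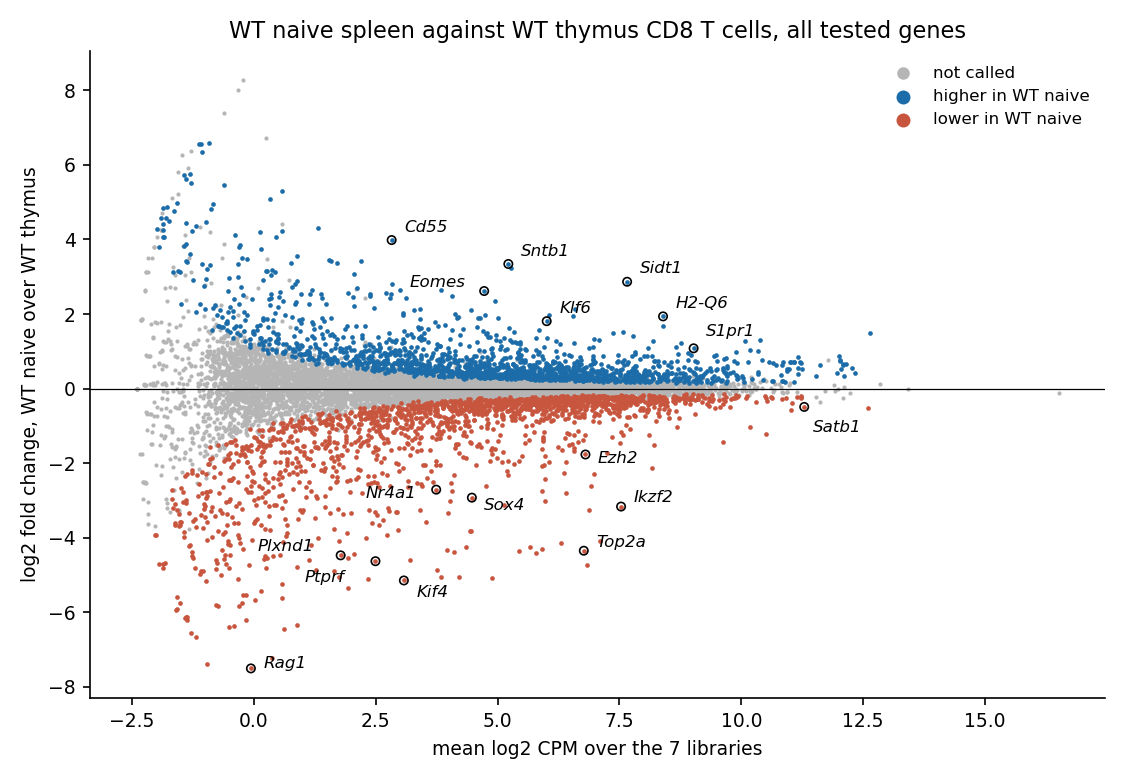
Log2 fold change of WT naive over WT thymus libraries (y axis) against the mean log2 CPM over the 7 libraries (x axis) for each of the 10296 genes tested, one point a gene, with called genes coloured by direction and some named genes ringed. Ringed genes lower in naive cells include Rag1 at -7.51 ± 0.94 (on 1 naive count) and Kif4 at -5.15 ± 0.56, and those higher include Cd55 at 3.98 ± 0.23.

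Of the 27 egress and homing genes 26 were tested, 12 were higher, 7 lower and 7 not called, with a median log2 fold change of 0.11 (0.01 with no filter on low counts). The shares over all genes tested were 15.3% higher and 16.9% lower. The exit receptor S1pr1 was among the higher genes, and Ccr9, Itgae and Plxnd1 among the lower. S1pr1 (chromosome 3, 115710433 to 115715072, - strand, GRCm38), the receptor thymocytes use to leave, had 751, 657, 691 and 768 CPM in the WT naive libraries, against 344, 330.0 and 343 CPM in the WT thymus libraries. Klf2, the factor that turns it on, had 77.3, 55.4, 58.5 and 72.6 CPM in the WT naive libraries, against 31.7, 29.1 and 35.2 CPM in the WT thymus libraries. In both genes every naive library exceeded every thymus library, by log2 fold changes of 1.08 ± 0.09 (adjusted p = 5.08e-12) and 1.04 ± 0.14 (adjusted p = 1.34e-07, edgeR). In bulk RNA, more cells with a transcript and more transcript per cell cannot be told apart.

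S1pr4, a second sphingosine 1-phosphate receptor, had 11.7, 12.6, 14.1 and 9.11 CPM in WT naive, against 4.26, 6.86 and 7.33 CPM in WT thymus libraries. The log2 fold change was 0.92 ± 0.18, adjusted p = 7.69e-05. Itga6 (0.92 ± 0.11, adjusted p = 1.95e-08) and Itga4 (0.90 ± 0.17, adjusted p = 1.41e-04), alpha chains of integrins that bind laminin and VCAM1, and Cxcr4 (0.58 ± 0.15, adjusted p = 0.00404), the CXCL12 receptor, were also higher. Ccr7, which guides cells to the thymic medulla and to lymph nodes, was higher by 0.30 ± 0.10 (adjusted p = 0.0172), a call that was lost without naive replicate 4 (adjusted p = 0.0727) and without thymus replicate 2 (adjusted p = 0.131). Foxo1, which activates Klf2 and Il7r, was higher by 0.27 ± 0.08 (adjusted p = 0.0137), and lost its call without naive replicate 3 (adjusted p = 0.0786) or thymus replicate 3 (adjusted p = 0.079).

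On the other side, Ccr9, the receptor for CCL25 of thymus and gut, had 50.7, 60.7, 59.5 and 51.8 CPM in the WT naive libraries, against 139, 131 and 152 CPM in the WT thymus libraries. Itgae, the alpha chain of CD103 that binds E-cadherin on epithelium, had 39.8, 36.5, 50.6 and 38 CPM in WT naive, against 111, 95 and 100.4 CPM in WT thymus libraries. Plxnd1, a plexin that in mouse thymocytes takes part in the move from cortex to medulla, had 0.866, 0.511, 0.568 and 1.36 CPM in the WT naive libraries, against 16.1, 20.7 and 18.9 CPM in the WT thymus libraries. The groups were far apart for each, with log2 fold changes of -1.33 ± 0.19, adjusted p = 2.26e-06, of -1.30 ± 0.14, adjusted p = 1.58e-09 and of -4.47 ± 0.32, adjusted p = 3.07e-14. Ccr4, another chemokine receptor of medullary entry, stood at 0.217 to 0.419 CPM in WT naive and 1.46 to 2.62 CPM in WT thymus libraries (-2.78 ± 0.46, adjusted p = 4.27e-06), and Itgal, the alpha chain of LFA-1, was lower by a smaller amount (-0.60 ± 0.10, adjusted p = 8.28e-06). Ccr9 shares 1954 exon bases with a gene on the opposite strand and Itga4 1124, and since the strand setting of the counting is not given, counts there may be shared.

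Itgb7, the beta chain that pairs with Itga4 or Itgae, was not called (0.18 ± 0.08, adjusted p = 0.0753), although it passed the threshold in 4 alternatives, among them the 7 libraries alone (adjusted p = 0.0452). Cd69, which holds S1pr1 inside the cell, had at most 9 counts in a library and was not tested. In WT memory cells of the spleen (n = 4), S1pr1 averaged 551 ± 34.5 CPM, while Ccr9 averaged 2.96 ± 0.726 CPM and Itgae 4.19 ± 0.674 CPM, lower averages than in WT naive and WT thymus libraries.

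**Figure D2:**
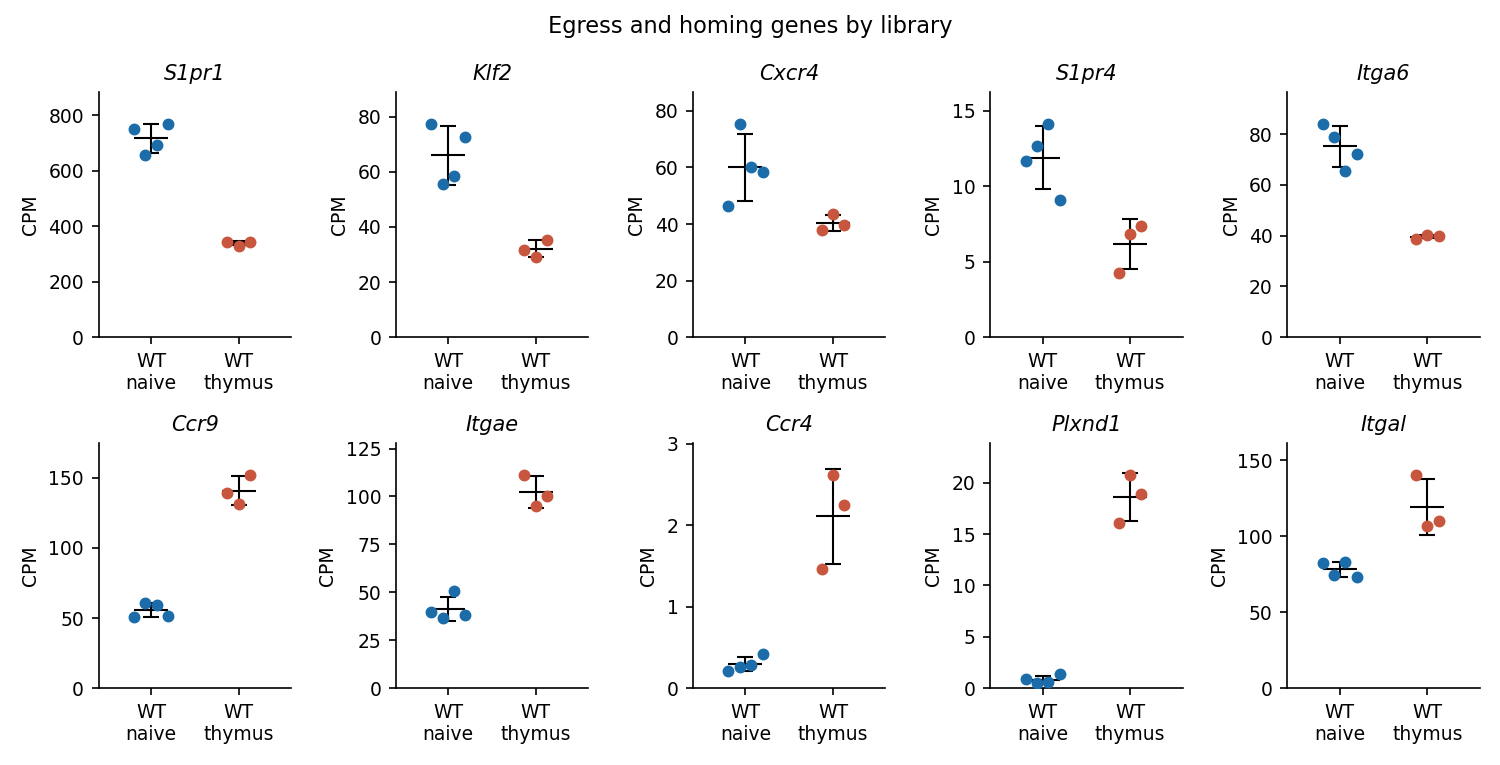
CPM (y axis, from 0) of 10 egress and homing genes in the 4 WT naive libraries (left, blue) and 3 WT thymus libraries (right, red). Each point is a library and the bars give the mean and SD. S1pr1, Klf2, Cxcr4, S1pr4 and Itga6 sit higher in every naive library, and Ccr9, Itgae, Ccr4, Plxnd1 and Itgal lower.

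The list of maturation markers (28 genes, 26 tested), mostly surface molecules of the mature cell, held 12 higher, 3 lower and 11 not called genes, with a median log2 fold change of 0.47 against 0.03 over all genes. The median of this list was 0.105 in Het and 0.478 in KO libraries. The nonclassical MHC class I gene H2-Q6 had 623, 640.1, 554 and 587 CPM in the WT naive libraries, against 196, 136 and 139.6 CPM in the WT thymus libraries. H2-Q7 had 1549, 1646, 1528 and 1531 CPM in WT naive, against 771, 804 and 729.6 CPM in WT thymus libraries. The classical class I genes moved less: H2-K1 (5216 to 6548 CPM in WT naive and 4045 to 4734 CPM in WT thymus libraries) by 0.43 ± 0.07 and H2-D1 by 0.34 ± 0.07, with adjusted p = 9.41e-06 and 1.56e-04. Class I genes are nearly identical in parts, so reads may be split between them and the single values are uncertain.

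Cd55, which encodes the complement regulator DAF, had 21, 24.1, 16.9 and 26.1 CPM in the WT naive libraries, against 1.33, 1.28 and 1.55 CPM in the WT thymus libraries, a rise of 3.98 ± 0.23, adjusted p = 1.42e-17, with no overlap. The interleukin receptor chains Il7r (2.81 to 7.15 CPM in WT naive and 1.12 to 1.73 CPM in WT thymus libraries) and Il6ra (1.52 to 4.34 CPM in WT naive and 0.291 to 0.776 CPM in WT thymus libraries) were higher at low counts, by 1.90 ± 0.36, adjusted p = 6.78e-05 and 2.44 ± 0.48, adjusted p = 7.91e-05. Ly6c2, an antigen of peripheral CD8 cells, had 31 counts in the 4 naive and 3 in the 3 thymus libraries, a ratio of 11.5 (95% counting interval 3.59 to 58.9), and Ms4a4c had 29 and 3 counts (ratio 10.8, 3.34 to 55.3). Dapl1 was higher by 3.79 ± 0.68, adjusted p = 2.18e-05. Without thymus replicate 3 it was higher by 5.03, on 55 naive counts and 1 remaining thymus count. The fitted log2 fold change of Ly6c2 was 3.31, and 4.17 without thymus replicate 3, each on few thymus counts (3 and 1). Itm2a, a transmembrane protein of newly selected thymocytes, was lower (11.7, 7.41, 13.4 and 13.2 CPM in WT naive, against 43.7, 32 and 47.9 CPM in WT thymus libraries, -1.83 ± 0.17, adjusted p = 4.27e-11).

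The GTPases of immunity associated proteins support the survival of T cells after export. Of 7 tested Gimap genes 4 were higher, 0 lower and 3 not called, with a median of 0.75. Gimap8 had 22.7, 29.1, 27.1 and 25.3 CPM in the WT naive libraries, against 15, 18.8 and 15.9 CPM in the WT thymus libraries (0.65 ± 0.13, adjusted p = 6.33e-05). Gimap6 rose by 0.48 ± 0.13, adjusted p = 0.0049. Gimap3 (1.34) was higher by 2.21 without thymus replicate 2, and Gimap4 (1.08 ± 0.38, adjusted p = 0.027) lost its call in 6 alternatives, among them without naive replicate 2 (adjusted p = 0.0893), naive replicate 3 (adjusted p = 0.123), thymus replicate 1 (adjusted p = 0.0816) and thymus replicate 3 (adjusted p = 0.111), as well as with no filter on low counts (adjusted p = 0.0625). The Gimap genes are close paralogs and reads may be shared.

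Of 25 genes of the immature thymocyte 18 were tested: 8 were lower in naive cells, 1 higher and 9 not called, with a median of -1.07. Sox4, a transcription factor of early thymocytes, had 7.58, 7.54, 11.8 and 9.84 CPM in the WT naive libraries, against 64.6, 70.7 and 79.4 CPM in the WT thymus libraries. This was a log2 fold change of -2.93 ± 0.22, adjusted p = 4.83e-12. Tox, a factor of thymocytes during selection, had 137, 110.1, 136 and 147 CPM in the WT naive libraries, against 307, 295 and 343 CPM in the WT thymus libraries. That is a log2 fold change of -1.25 ± 0.09, adjusted p = 2.91e-14. Satb1, a chromatin organiser with high expression in thymocytes, was lower, with a log2 fold change of -0.49 ± 0.06, adjusted p = 5.74e-09, and its values (1982 to 2356 CPM in WT naive and 2870.3 to 3221 CPM in WT thymus libraries) did not overlap.

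Rag1, a subunit of the recombinase that assembles receptor genes, had 0, 0, 0.0947 and 0 CPM in the WT naive libraries, against 12.9, 6.86 and 4.05 CPM in the WT thymus libraries. The 4 naive libraries held 1 count in all, in replicate 3, and the 3 thymus libraries 262, a ratio of thymus over naive of 235 (95% counting interval 41.8 to 9320). Without naive replicate 3 the naive libraries held 0 counts, and Rag1 was at least 52.9-fold lower by a floor of 3 counts over the group. Dntt, the transferase that adds bases at receptor joints, was lower, with a log2 fold change of -1.48 ± 0.41, adjusted p = 0.00419, and the thymocyte genes Arpp21 and Notch3 were lower too, at -3.41 ± 0.41 and -5.62 ± 0.46 (adjusted p = 1.02e-08 and 5.87e-12), with Notch3 at -7.79 without naive replicate 3, on 1 remaining naive count. The exception was Dtx1, an E3 ligase of the Notch pathway, which was higher (142, 129, 156 and 119.8 CPM in the WT naive libraries, against 46.5, 66.5 and 61.5 CPM in the WT thymus libraries, 1.22 ± 0.20, adjusted p = 2.42e-05). The heat-stable antigen gene Cd24a had at most 6 counts in a library and was not tested. The summed level of the 5 tested of 10 double positive thymocyte markers ran from 0.65 to 2.56 CPM in naive and from 12.8 to 20.6 CPM in thymus libraries. Cd4 and Ptcra had at most 2 and 1 counts. The part of these markers in the changes above was not tested.

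The promoter of Rag1 is shown as that of the recombinase gene described above, as RefSeq gives it (GRCm38.p6, chr2:101649483-101649782, - strand, from 250 bases before to 50 bases after the start). Capitals mark the letters of an E-box (CAGCTG), which also occur in 16.3% of the 32851 promoters of this length and are a description of the letters alone.
Rag1: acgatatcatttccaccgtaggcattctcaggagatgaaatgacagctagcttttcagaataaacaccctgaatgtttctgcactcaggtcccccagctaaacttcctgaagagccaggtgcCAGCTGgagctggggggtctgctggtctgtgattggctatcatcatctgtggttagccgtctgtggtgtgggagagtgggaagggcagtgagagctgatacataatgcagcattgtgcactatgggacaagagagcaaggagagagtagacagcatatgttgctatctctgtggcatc

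Immediate early and selection genes report recent signals from the T cell receptor. Of 27 tested, 11 were lower and 2 higher in naive cells, with a median of -0.18, which was -0.47 without naive replicate 1 and -0.11 without naive replicate 4. Nr4a1, which encodes Nur77, had 8.01, 5.11, 6.53 and 4.4 CPM in the WT naive libraries, against 35.2, 39.5 and 40.2 CPM in the WT thymus libraries. Nr4a3 had 13.6, 14.3, 10.2 and 13.3 CPM in WT naive, against 51, 45.6 and 63.2 CPM in WT thymus libraries, and Egr2 had 51.8, 36, 47.2 and 55.9 CPM in WT naive, against 144, 115 and 162 CPM in WT thymus libraries. These 3 genes of signal strength were lower in every naive library, with log2 fold changes of -2.71 ± 0.19, adjusted p = 2.41e-14, of -2.06 ± 0.18, adjusted p = 3.90e-11 and of -1.56 ± 0.24, adjusted p = 6.11e-06. Egr1 (79.2, 55.1, 57.8 and 72.2 CPM in the WT naive libraries, against 183, 147 and 200.2 CPM in the WT thymus libraries) and Egr3 fell, with log2 fold changes of -1.43 ± 0.21 and -0.85 ± 0.22 (adjusted p = 5.50e-06 and 0.00336). Ikzf2, the gene of Helios, stood at 44.4, 53.8, 109 and 91.8 CPM in the WT naive libraries, against 577, 764 and 703 CPM in the WT thymus libraries (-3.17 ± 0.24, adjusted p = 4.98e-11), and naive replicates 3 and 4 were the higher ones. Irf4, a receptor-induced factor, was lower, with a log2 fold change of -2.48 ± 0.31, adjusted p = 2.53e-08. For Dusp4, a phosphatase of the MAP kinases, the log2 fold change was -1.86 ± 0.31, adjusted p = 6.61e-06. The only 2 members higher in naive cells were Junb (0.54) and Zfp36 (0.36), and neither held throughout: Junb lost its call without naive replicate 1 (adjusted p = 0.0629), and Zfp36 lost it without naive replicate 1 (adjusted p = 0.132), naive replicate 3 (adjusted p = 0.125), thymus replicate 2 (adjusted p = 0.0876) or thymus replicate 3 (adjusted p = 0.181).

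**Figure D3:**
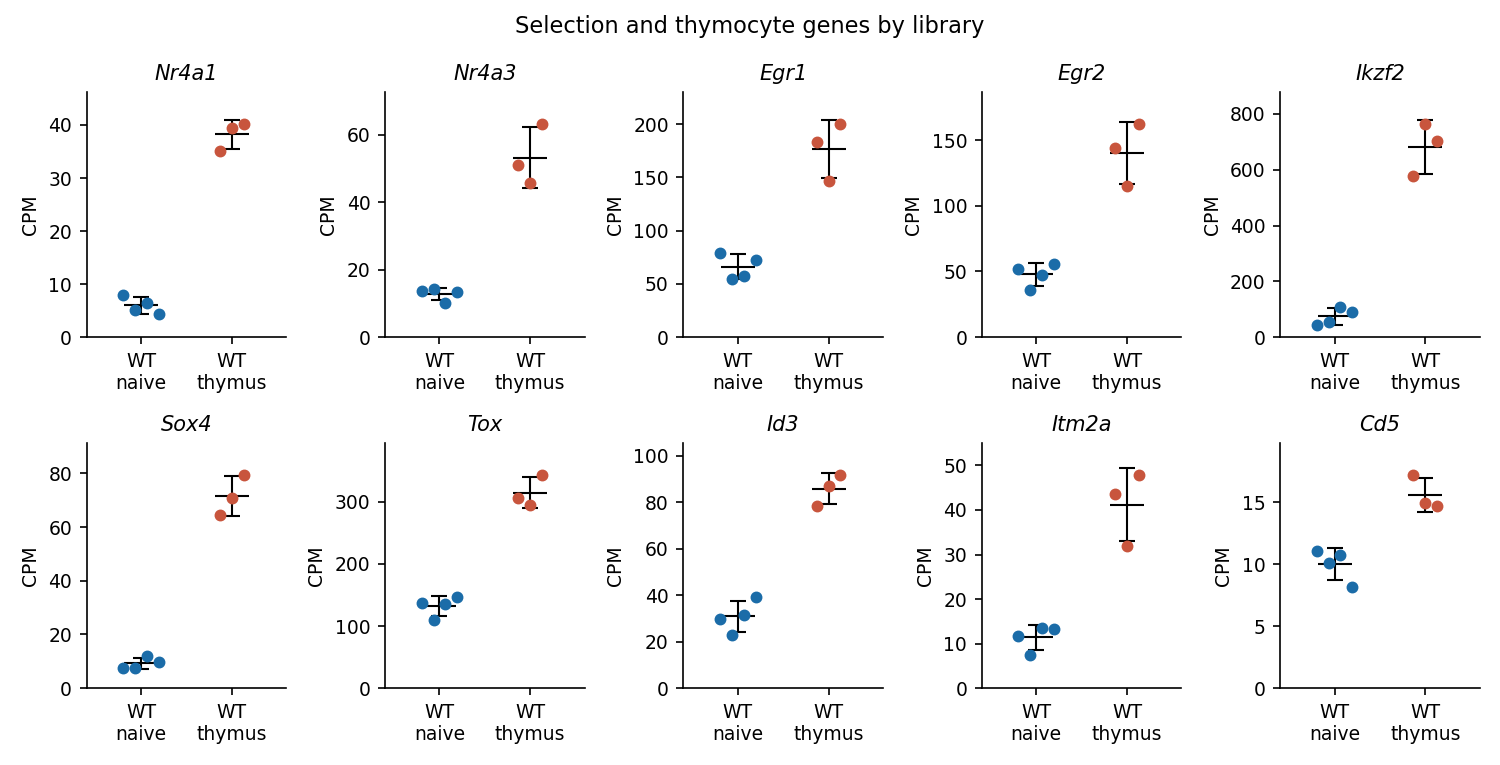
CPM (y axis, from 0) of 10 selection and thymocyte genes in the 4 WT naive libraries (left, blue) and 3 WT thymus libraries (right, red), each point a library with mean and SD. All 10 genes, from Nr4a1 to Cd5, are lower in every naive library.

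Parts of the receptor signalling apparatus moved in both directions. All 40 listed genes were tested, 9 were higher, 12 lower and 19 not called, and the median was -0.03 (-0.12 without naive replicate 3, -0.08 without naive replicate 2 and -0.10 without thymus replicate 3). Over all genes tested 15.3% were higher and 16.9% lower. Cd5, an inhibitory receptor whose level follows self recognition, had 11, 10.1, 10.7 and 8.16 CPM in WT naive, against 17.2, 14.9 and 14.7 CPM in WT thymus libraries (-0.64 ± 0.14, adjusted p = 4.11e-04), and its relative Cd6 fell, with a log2 fold change of -0.57 ± 0.11. The receptor chain Cd3e (181 to 229.9 CPM in WT naive and 280.4 to 320.2 CPM in WT thymus libraries) was lower, with a log2 fold change of -0.51 ± 0.08, adjusted p = 1.64e-06. The phosphatase gene Ptpn6 (SHP-1) was lower too (-0.53 ± 0.10, adjusted p = 3.79e-05). Negative regulators of signalling lay on both sides, with Cd5 lower and Dgka and Cblb higher in naive cells. Dgka, a diacylglycerol kinase, had 571, 570.2, 516 and 505 CPM in WT naive, against 378, 363 and 347 CPM in WT thymus libraries (0.58 ± 0.08, adjusted p = 2.58e-07). Cblb, a ubiquitin ligase, was higher by 0.56 ± 0.07, adjusted p = 4.99e-08. Nfatc2 and Malt1, which carry signals to NFAT and NF-kappaB targets, were higher by 0.44 ± 0.10 and 0.55 ± 0.09 (adjusted p = 6.18e-04 and 1.52e-06). With mean log centring, an alternative way to scale libraries, the list held 10 higher and 7 lower genes and its median changed sign to 0.02.

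Of 10 tested survival genes of the BCL2 family 2 were lower and 0 higher, against 16.9% and 15.3% of all genes tested. Bcl2l1, the gene of BCL-xL that keeps double positive cells alive, had 8.66, 9.2, 12.4 and 9.42 CPM in the WT naive libraries, against 22.2, 19.5 and 20.4 CPM in the WT thymus libraries (-1.03 ± 0.17, adjusted p = 7.66e-06). The pro-death gene Bmf was lower, with a log2 fold change of -3.23 ± 0.59, adjusted p = 2.74e-05 at low counts. Bcl2 itself was not called (-0.11 ± 0.17, adjusted p = 0.684), with overlapping values (149 to 164 CPM in WT naive and 152 to 187 CPM in WT thymus libraries), and Mcl1 was near 0 (-0.02 ± 0.09, adjusted p = 0.915). Among cytokine receptors and their regulators, 10 of 27 tested genes were higher and 3 lower, with a median of 0.21 (0.13 without naive replicate 3). Socs3, a brake on cytokine signals, had 29, 28, 36.7 and 30.6 CPM in the WT naive libraries, against 9.19, 11.5 and 10.1 CPM in the WT thymus libraries. The difference was 1.59 ± 0.17, adjusted p = 1.81e-09. The IL-18 receptor gene Il18r1 was higher by 3.84 ± 0.55, adjusted p = 2.86e-07, and Il10ra had 12 counts in naive and 0 in thymus libraries, at least 4.46-fold higher by a floor of 3 counts over the group. Ifngr1 was higher by 1.53 ± 0.47, adjusted p = 0.0101, but lost its call without naive replicate 3 (adjusted p = 0.108) and without thymus replicate 3 (adjusted p = 0.07), and stood at 2.13 without thymus replicate 2. Tgfbr1, the type I TGF-beta receptor, was lower (-0.90 ± 0.09, adjusted p = 1.04e-10).

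Among transcription factors of T cells, 11 of 37 tested were higher and 5 lower (median 0.15), against 15.3% higher and 16.9% lower of all genes tested. Klf6 had 106, 112, 106 and 116 CPM in the WT naive libraries, against 29.3, 34.3 and 30.3 CPM in the WT thymus libraries (1.81 ± 0.13, adjusted p = 7.36e-14). Klf3 had 18, 19.9, 21.9 and 15.2 CPM in WT naive, against 8.52, 5.41 and 5.17 CPM in WT thymus libraries (1.61 ± 0.15, adjusted p = 1.64e-11). Both belong to the Kruppel-like family of Klf2. Eomes had 54.8, 45.5, 61.4 and 66.8 CPM in the WT naive libraries, against 10.9, 6.63 and 11.3 CPM in the WT thymus libraries (2.62 ± 0.22, adjusted p = 1.06e-10). Tbx21, the gene of T-bet, had 13, 11.5, 23.3 and 15.1 CPM in WT naive, against 3.46, 1.74 and 2.24 CPM in WT thymus libraries. On the log2 scale it changed by 2.80 ± 0.40, adjusted p = 3.31e-06. Both of these T-box genes are known for effector and memory CD8 cells, and in WT memory libraries they averaged 181 ± 12.5 CPM (Eomes) and 164 ± 24.9 CPM (Tbx21; SD, n = 4). Lower in naive cells were Id3, an inhibitor of E proteins (-1.47 ± 0.21, adjusted p = 2.87e-06), Bhlhe40 (-2.90 ± 0.38, adjusted p = 1.16e-07) and Ikzf3 (-0.52 ± 0.08, adjusted p = 2.15e-06). Tcf7, whose product TCF-1 keeps naive cells, was higher by 0.21 ± 0.07, adjusted p = 0.0212, and lost its call without naive replicate 1 (adjusted p = 0.133), thymus replicate 2 (adjusted p = 0.0942) or thymus replicate 3 (adjusted p = 0.0702). Lef1 (0.18 ± 0.08, adjusted p = 0.0713), Runx3 (0.21 ± 0.16, adjusted p = 0.363) and Myc (0.01 ± 0.19, adjusted p = 0.983) were not called, and Myc changed sign between alternatives.

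Memory and effector genes, a list of 25 tested, held 7 higher, 3 lower and 15 not called, against 15.3% higher and 16.9% lower of all genes tested. Cxcr3, a receptor of inflamed sites, had 58 counts in naive and 1 in thymus libraries, a ratio of 64.7 (95% counting interval 11.2 to 2600), or at least 11.3-fold higher by a floor of 3 counts without thymus replicate 2, which held that count. Klrk1, the gene of NKG2D, had 55 and 3 counts (ratio 20.4, 6.64 to 102). Ccl5 stood at 4.76, 8.43, 35.8 and 12.8 CPM in the WT naive libraries, against 4.39, 2.56 and 2.93 CPM in the WT thymus libraries. Its log2 fold change was 2.42 ± 0.70, adjusted p = 0.00854, and 1.56 without naive replicate 3 (adjusted p = 0.109). It also lost its call without thymus replicate 2 (adjusted p = 0.0533), in the 7 libraries alone (adjusted p = 0.084) and with the replicate block there (adjusted p = 0.221). Anxa2 and Lgals1, genes of activated cells, were lower, with log2 fold changes of -1.08 ± 0.22 and -1.40 ± 0.18 (adjusted p = 2.80e-04 and 4.01e-07). The naive gate was CD44 negative, and Cd44 was not called.

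Genes of quiescence were higher in 12 of 25 tested and lower in 5, with a median of 0.25 (0.16 without thymus replicate 1). Among all genes tested the shares were 15.3% and 16.9%. Tsc22d3, the gene of GILZ, had 95.3, 128, 103 and 102 CPM in the WT naive libraries, against 47.7, 49.9 and 35.4 CPM in the WT thymus libraries (1.27 ± 0.21, adjusted p = 1.94e-05). Pik3ip1, a brake on PI3 kinase, had 72.3, 72.4, 77.5 and 76.5 CPM in WT naive, against 31.6, 38.3 and 39.5 CPM in WT thymus libraries. Naive over thymus, the log2 fold change was 1.03 ± 0.12, adjusted p = 3.15e-09. Tob1, an antiproliferative protein, and Cdkn1b, the gene of p27, were higher by 1.02 ± 0.14 and 0.69 ± 0.10 (adjusted p = 1.35e-07 and 8.02e-07), and Foxp1, a factor of naive T cell quiescence, by 0.40 ± 0.06, adjusted p = 8.89e-07. Klf4 had 17 counts in naive and 0 in thymus libraries, at least 6.32-fold higher by the same floor of 3 counts. Cdkn2c, the gene of p18, went the other way (3.9, 3.07, 3.5 and 3.77 CPM in WT naive, against 11.3, 13.5 and 13.3 CPM in WT thymus libraries, -1.85 ± 0.29, adjusted p = 3.01e-06), as did Rb1 (-0.56 ± 0.17, adjusted p = 0.00702).

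Genes of the dividing cell were lower in naive cells. Of 31 tested DNA replication genes 29 were lower, 0 higher and 2 not called (median -1.65), and of 26 tested mitosis genes 25 were lower, 0 higher and 1 not called (median -4.08, or -4.04 with the gene at 0 in naive at its bound). Top2a, the topoisomerase that untangles chromosomes, had 16.7, 25.7, 48.7 and 32.7 CPM in the WT naive libraries, against 487, 770.2 and 697 CPM in the WT thymus libraries. The log2 fold change was -4.35 ± 0.43, adjusted p = 6.05e-09. Mcm2, a subunit of the replicative helicase, had 55.9, 62, 57.9 and 56.6 CPM in the WT naive libraries, against 169.8, 193 and 189 CPM in the WT thymus libraries (-1.66 ± 0.08, adjusted p = 5.76e-21). Rrm2, which makes deoxynucleotides, had 3.68, 3.7, 5.77 and 3.77 CPM in WT naive, against 63.9, 112 and 84.8 CPM in WT thymus libraries. This was a log2 fold change of -4.33 ± 0.41, adjusted p = 2.93e-09. No naive library reached the lowest thymus library in any of the 3.

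The rest of the set varied with the counts behind it. Mcm5 and Cdc45 fell, with log2 fold changes of -1.97 ± 0.13 and -3.80 ± 0.25 (adjusted p = 6.06e-16 and 2.40e-14), and so did Mcm10 (-5.42 ± 0.58, adjusted p = 1.04e-09). Pcna, the polymerase clamp, was lower by a smaller amount (-0.85 ± 0.20, adjusted p = 0.00112). Cdk1, the mitotic kinase, had 1 count in naive and 93 in thymus libraries, a thymus over naive ratio of 83.4 (14.6 to 3330). Cenpf had 1 and 136 counts (ratio 122, 21.5 to 4850), Cdc6 had 1 and 32 (28.7, 4.79 to 1170), and Bub1 had 0 and 42 counts, at least 12.6-fold lower. Without naive replicate 4, which held the single count of each, Cdk1 was at least 19.6-fold lower, Cenpf at least 28.7-fold and Cdc6 at least 6.76-fold, by a floor of 3 counts over the group. Mki67, which encodes the Ki-67 antigen, was lower, with a log2 fold change of -4.01 ± 0.53, adjusted p = 6.53e-07, or -4.95 without naive replicate 3. The summed level of the tested mitosis genes ran from 113 to 153 CPM in naive and from 813 to 1249 CPM in thymus libraries. In the sum naive replicate 3 was the highest naive library.

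Mitosis genes share a promoter element in many animals, the cell cycle genes homology region (CHR). Its letters, TTTGAA on either strand, were searched after this list was seen to fall. They occurred in 17 of 21 promoters of 20 mitosis genes called lower (81.0%), in 11.8% of 10046 promoters of tested genes, in 17.9% of all 32851 promoters and in 4 of 29 promoters (13.8%) of called DNA replication genes. Promoters run from 250 bases before to 50 bases after the start and come from RefSeq (GRCm38.p6). The promoters below, of Cdc20 (chr4:118437294-118437593, - strand), Kif11 (chr19:37376132-37376431, + strand) and Ube2c (chr2:164769679-164769978, + strand), are shown because the letters lie just before the start in each, at -18, -19 and -29, and capitals mark them (in Kif11 and Ube2c as the reverse complement). A match describes letters only.
Cdc20: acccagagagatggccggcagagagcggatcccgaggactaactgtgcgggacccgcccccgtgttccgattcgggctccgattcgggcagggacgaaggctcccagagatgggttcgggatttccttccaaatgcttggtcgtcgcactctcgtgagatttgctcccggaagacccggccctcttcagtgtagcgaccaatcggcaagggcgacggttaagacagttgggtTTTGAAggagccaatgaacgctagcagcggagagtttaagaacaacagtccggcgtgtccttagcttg
Kif11: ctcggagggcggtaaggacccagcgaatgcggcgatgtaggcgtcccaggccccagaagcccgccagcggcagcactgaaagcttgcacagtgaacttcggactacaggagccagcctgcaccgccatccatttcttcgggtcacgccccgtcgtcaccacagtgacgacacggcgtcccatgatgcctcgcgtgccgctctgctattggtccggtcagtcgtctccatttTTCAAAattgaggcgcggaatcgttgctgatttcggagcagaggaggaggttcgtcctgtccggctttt
Ube2c: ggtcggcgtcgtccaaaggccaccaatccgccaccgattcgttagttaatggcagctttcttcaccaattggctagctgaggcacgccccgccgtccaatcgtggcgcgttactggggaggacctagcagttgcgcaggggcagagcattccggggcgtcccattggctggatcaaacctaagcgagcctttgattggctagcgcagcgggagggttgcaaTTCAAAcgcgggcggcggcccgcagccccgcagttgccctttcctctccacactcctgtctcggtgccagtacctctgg
Cdc20, the activator of the anaphase promoting complex, had 3.9, 2.04, 4.07 and 2.51 CPM in the WT naive libraries, against 13.2, 17.4 and 14 CPM in the WT thymus libraries (-2.27 ± 0.23, adjusted p = 1.19e-10). Ube2c, a ubiquitin conjugating enzyme that works with it, was lower, with a log2 fold change of -4.87 ± 0.51, adjusted p = 1.11e-08. Kif11, a spindle motor, fell, with a log2 fold change of -5.12 ± 0.56 (-5.78 without naive replicate 3).

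The 12 lowest genes that passed the level and overlap rules were 11 genes of division or chromatin and 1 receptor phosphatase gene. They were the motors Kif4 (-5.15 ± 0.56, adjusted p = 3.41e-08), Kif11 and Kif15 (-4.43 ± 0.45), Dtl (-4.61 ± 0.29), which targets replication factors for destruction, 7 histone genes and Ptprf (0.837 to 2.43 CPM in WT naive and 33.9 to 35.5 CPM in WT thymus libraries, -4.63 ± 0.23, adjusted p = 1.03e-19). The histones were Hist1h3b (-5.09 ± 0.65), Hist1h3c (-5.06 ± 0.66), Hist1h2bk (-5.04 ± 0.70), Hist1h3d (-4.86 ± 0.48), Hist1h2bm (-4.74 ± 0.56), Hist1h4f (-4.41 ± 0.50) and Hist1h2bl (-4.38 ± 0.49). Without naive replicate 3, Kif11 was at -5.78, Hist1h3b at -5.74, Hist1h3c at -6.24 and Hist1h2bk at -5.92. Histone genes are near copies of each other, most of their transcripts lack the poly(A) tail that the library kit selects, and single values are uncertain.

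The 12 highest genes by the same rules were of mixed roles, and Cd55, Eomes and Tbx21 among them are described above. The rules required a call and no overlap of the library values, so neither trait is a result about these genes. Sidt1, a transmembrane protein of the family that includes the double-stranded RNA channel of worms, had 526, 466, 453 and 446 CPM in the WT naive libraries, against 63.6, 62.2 and 68.6 CPM in the WT thymus libraries. The log2 fold change was 2.87 ± 0.10, adjusted p = 8.74e-26. Sntb1, a syntrophin of the cytoskeleton, had 104, 91.1, 89.8 and 113 CPM in the WT naive libraries, against 12.1, 8.6 and 9.31 CPM in the WT thymus libraries (3.34 ± 0.15, adjusted p = 5.76e-21). Atxn1, whose human counterpart is the gene of a spinocerebellar ataxia, had 27.9, 30.9, 36.8 and 26.7 CPM in the WT naive libraries, against 4.93, 4.36 and 5.61 CPM in the WT thymus libraries (2.64 ± 0.15, adjusted p = 8.76e-18). The others were the class I gene H2-Q10 (3.42 ± 0.48), the terminal nucleotidyltransferase gene Tent5a (3.24 ± 0.15), Wscd2 (3.08 ± 0.31), the collagen receptor gene Ddr1 (2.70 ± 0.25), the ubiquitin ligase gene March3 (2.63 ± 0.27) and the amyloid precursor gene App (2.57 ± 0.34). Sidt1 shares 461 exon bases with a gene on the opposite strand, Atxn1 375 and Ddr1 216.

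Regulators of chromatin were mostly lower, 23 of 33 tested against 3 higher, with a median of -0.49. Ezh2, the catalytic subunit of Polycomb repressive complex 2, had 51.5, 56.9, 72.4 and 84.9 CPM in the WT naive libraries, against 203, 247 and 235 CPM in the WT thymus libraries (-1.77 ± 0.12, adjusted p = 7.07e-14). Its paralog Ezh1 was higher (90.5, 91.9, 81.8 and 93.6 CPM in WT naive, against 65.2, 53.7 and 59.2 CPM in WT thymus libraries, 0.60 ± 0.09, adjusted p = 1.75e-06). Dnmt3a, a DNA methyltransferase, had 101, 114, 142 and 118 CPM in WT naive, against 312, 337 and 331 CPM in WT thymus libraries (-1.46 ± 0.09, adjusted p = 6.97e-17). Lmnb1, a lamin of the nuclear envelope, fell, with a log2 fold change of -2.02 ± 0.11, adjusted p = 5.50e-18. Kmt2a, a methyltransferase of histone H3 lysine 4, was higher by 0.45 ± 0.09, adjusted p = 1.70e-04. Several of the genes that fell, such as Uhrf1 (-2.43 ± 0.43) and Dnmt1 (-0.91 ± 0.16), are also known for the dividing cell. A link to the fall of the mitosis list above was not tested.

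Metabolic genes were followed in 2 lists, against 15.3% higher and 16.9% lower of all genes tested. Of 19 tested glycolysis genes 9 were lower and 3 higher (median -0.18), and without thymus replicate 2 none was higher. Hk2, hexokinase 2, had 3.25, 3.32, 3.12 and 3.14 CPM in WT naive, against 8.39, 7.38 and 9.31 CPM in WT thymus libraries (-1.38 ± 0.20, adjusted p = 3.71e-07). Pkm, pyruvate kinase, was lower, with a log2 fold change of -0.68 ± 0.08, adjusted p = 2.66e-09. Slc2a1 was higher by 0.33 ± 0.12, adjusted p = 0.0244 and lost its call in 6 alternatives, among them without naive replicate 3 (adjusted p = 0.0604), naive replicate 4 (adjusted p = 0.0634), thymus replicate 2 (adjusted p = 0.0619) or thymus replicate 3 (adjusted p = 0.0921). Of 18 tested cholesterol genes 5 were higher and 2 lower (median 0.33), and 8 were higher with the replicate block over all libraries. Srebf2, the master factor of the pathway, had 271, 239.8, 231 and 226 CPM in the WT naive libraries, against 137, 132 and 155 CPM in the WT thymus libraries (0.77 ± 0.09, adjusted p = 2.90e-09). Insig1, its brake, had 17.1, 15.1, 16.2 and 17 CPM in WT naive, against 7.59, 5.46 and 6.81 CPM in WT thymus libraries (1.32 ± 0.16, adjusted p = 1.39e-08). The 2 that fell export cholesterol, Abcg1 (-1.07 ± 0.10, adjusted p = 1.97e-11) and Abca1 (-1.30 ± 0.25, a call lost with the replicate block in the 7 libraries, adjusted p = 0.0829).

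Interferon stimulated genes were lower in 12 of 30 tested and higher in 1 (median -0.33, but -0.09 without thymus replicate 2 and -0.52 without thymus replicate 3). Ifit1 had 8.44, 9.33, 8.24 and 8.06 CPM in the WT naive libraries, against 39.4, 43.4 and 43.4 CPM in the WT thymus libraries (-2.31 ± 0.31, adjusted p = 1.11e-06). Rsad2, the gene of viperin, had 1.52, 2.43, 1.89 and 0.837 CPM in WT naive, against 10.4, 13.4 and 10.1 CPM in WT thymus libraries (-2.77 ± 0.33, adjusted p = 2.35e-08). Mx1 fell, with a log2 fold change of -1.63 ± 0.24, adjusted p = 1.00e-06. Ifit3 (-1.79 ± 0.33) and the factor Irf7 (-1.09 ± 0.27) were lower too, with adjusted p = 2.84e-05 and 0.00142, while Irf1 was higher (0.53 ± 0.12, adjusted p = 5.13e-04). Oas2 was lower, with a log2 fold change of -1.95 ± 0.64, adjusted p = 0.0166, and lost its call without naive replicate 3 (adjusted p = 0.0741) or thymus replicate 2 (adjusted p = 0.0651). Heat shock and stress genes can follow tissue handling. They held 3 higher and 4 lower genes of 18 tested, against 15.3% higher and 16.9% lower of all genes tested. The lower count was 2 with mean log centring and without naive replicate 3 or thymus replicate 1, and 7 were higher with the replicate block. Bag3, a chaperone partner, was the highest (8.88, 13.7, 10.8 and 9.63 CPM in the WT naive libraries, against 1.6, 1.86 and 1.98 CPM in the WT thymus libraries, 2.55 ± 0.41, adjusted p = 1.50e-05), and Hspa5 was lower (-0.48 ± 0.10, adjusted p = 2.14e-04).

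Ribosome biogenesis genes held 3 higher and 4 lower of 30 tested (median 0.09), against 15.3% higher and 16.9% lower of all genes tested. The counts were 7 and 3 with mean log centring, 1 and 5 with RLE scaling, and 1 and 6 without naive replicate 1. The higher count was also 1 without naive replicate 2 or thymus replicate 3. The 12 CD8 T cell markers held 4 lower and 0 higher genes, and 2 lower genes with mean log centring, without naive replicate 4 or without thymus replicate 3.

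Markers of other cells moved with the groups, and their part in the results above was not tested. Sums of markers cover only the tested genes of a list. The summed level of the 10 tested of 15 B cell markers was 15.2, 18.8, 47.0 and 112 CPM in the naive libraries, replicates 1 to 4. It was 17.3, 7.73 and 7.85 CPM in the thymus libraries. Of 10 tested, 5 were higher and 0 lower. Pax5 had 1.95, 2.68, 6.91 and 15.1 CPM in the WT naive libraries, against 0, 0 and 0.517 CPM in the WT thymus libraries. That is a log2 fold change of 5.31 ± 1.81, adjusted p = 0.0269. Ebf1 (5.10 ± 1.86) and H2-Ab1 (4.19 ± 1.48) followed the same order, Cd22 had 11 and 0 counts (at least 4.09-fold higher), and Ms4a1 and Spib had at most 2 and 5 counts in a library. Without naive replicate 4, 1 of the 9 B cell genes then tested was called, and the median was 1.76 against 2.86, and without thymus replicates 1, 2 and 3 in turn 2, 1 and 0 of 11 were called. Without naive replicate 4, Pax5 stood at 4.55, Ebf1 at 4.25, H2-Ab1 at 3.29 and Cd22 had 4 counts in naive and 0 in thymus libraries, at least 2.1-fold higher, and without thymus replicate 2 Pax5 stood at 4.46 and Ebf1 at 6.54, while Pax5 was at least 62.5-fold higher without thymus replicate 3, with 0 thymus counts left. Cd79b (1.24 ± 0.38, adjusted p = 0.00909) lost its call without naive replicate 3 (adjusted p = 0.0632) or thymus replicate 3 (adjusted p = 0.0615). The summed erythroid and platelet markers were 4.17 to 27.1 CPM in naive and 3.14 to 3.45 CPM in thymus libraries, with 0 of 4 tested genes called by edgeR (2 at an unadjusted p under 0.05) and 3 by DESeq2. Summed myeloid markers ran from 1.28 to 4.92 CPM in naive and from 0.13 to 0.70 CPM in thymus libraries, with Itgam, Adgre1 and C1qa at 0 counts. Natural killer markers Ncr1, Klrb1c and Klra8 had 0 counts in all 7 libraries, and of 3 tested only Eomes was called.

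Summed CD4 and regulatory T cell markers ran from 45.5 to 112 CPM in naive and from 582 to 769 CPM in thymus libraries, and most of the sum was Ikzf2. Of 4 tested, Ikzf2 and Ctla4 were called lower, and only 1 gene was called with mean log centring, non-robust estimation or sex as a covariate, or without naive replicate 1, 3 or 4 or thymus replicate 1 or 3. Summed innate-like T cell markers ran from 52.8 to 70.7 CPM in naive and from 110.1 to 127 CPM in thymus libraries, most of it Itgae, with Slamf6 higher and Itgae lower of 5 tested. Klrb1c had 0 counts.

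**Figure D4:**
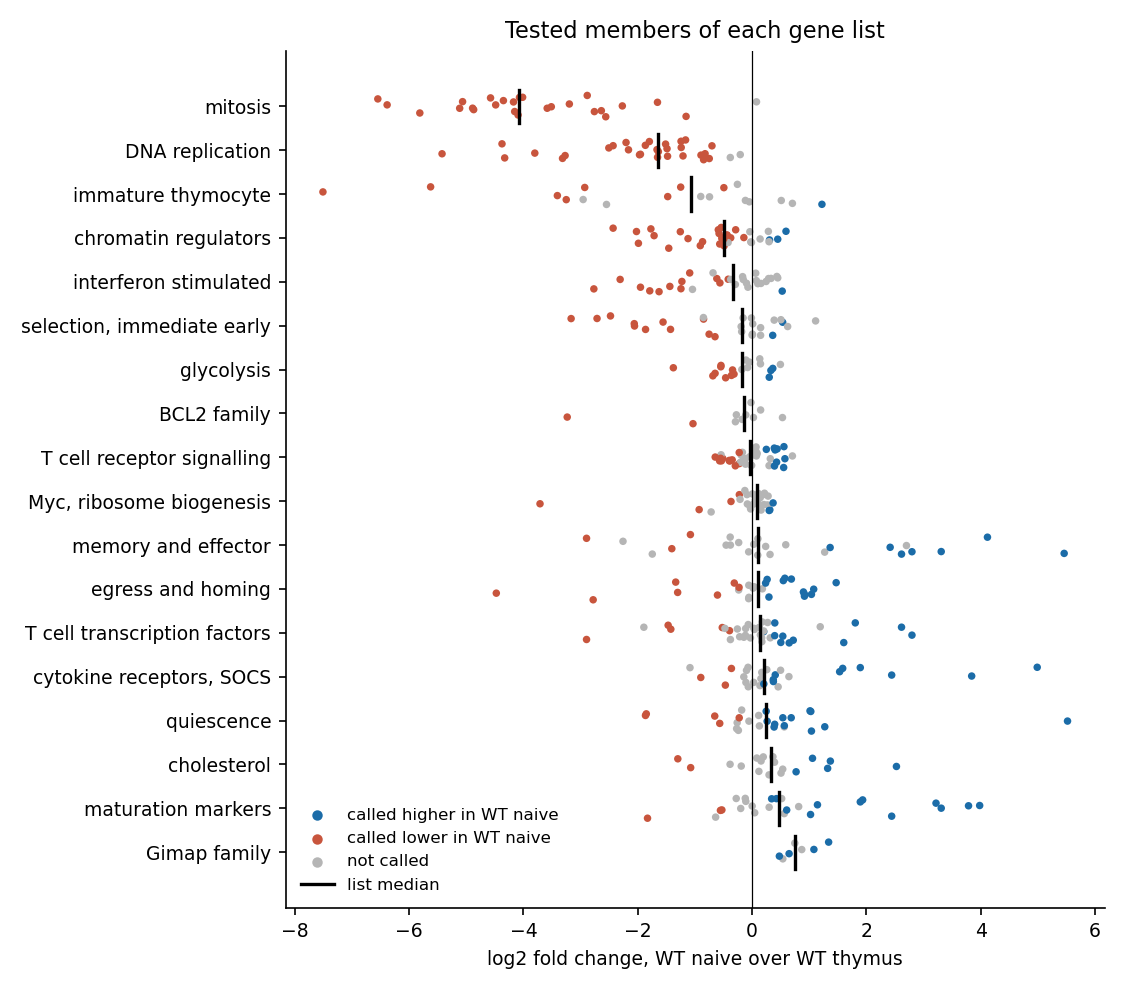
Log2 fold change of WT naive over WT thymus libraries (x axis) for the tested members of 18 gene lists (rows), each point a gene coloured by its call, with the list median as a bar. All but 1 of the mitosis members and all DNA replication members lie left of 0, with medians of -4.08 and -1.65, and Gimap members all lie to the right.

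The same contrast was run in the other genotypes, whose libraries share none with the WT contrast, only the estimate of spread. In Het mice 4067 genes (39.5%) were called. Of the 3319 WT genes, 2738 were called in the same direction there (82.5% of the WT and 67.3% of the Het calls) and 1 in the opposite direction, Arl10. The test of the difference between the WT and Het contrasts called 0 genes, with 419 at an unadjusted p under 0.05, and 0 by DESeq2. S1pr1 changed by 1.05 in Het and 1.08 ± 0.09 in WT, Ccr9 by -1.04 in Het and -1.33 ± 0.19 in WT, and Top2a by -4.87 in Het and -4.35 ± 0.43 in WT.

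In libraries labelled KO 4543 genes (44.1%) were called, and 2480 of the WT calls were called in the same direction (74.7% of the WT and 54.6% of the KO calls) and 37 in the opposite one. The difference between the WT and KO contrasts was called for 653 genes (6.34%), of which 425 were also called in WT, and for 251 of these the change was smaller in KO. Dot1l was at 55.7 ± 1.26 CPM in KO naive and 77.3 ± 1.68 CPM in KO thymus libraries (SD, n = 4 each), against 49.5 ± 2.08 CPM in WT naive (SD, n = 4) and 67 ± 5.2 CPM in WT thymus libraries (n = 3), so the libraries labelled KO had no lower level. Which part of the gene is floxed is not given, and a gene-wide count is then no check of the deletion.

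Several genes of the themes above had a smaller change in KO. Satb1 averaged 1712 ± 22.4 CPM in KO naive and 1628 ± 43.3 CPM in KO thymus libraries (n = 4 each), against 2164 ± 153 CPM in WT naive (SD, n = 4) and 3043 ± 175 CPM in WT thymus libraries (n = 3), and the contrasts differed (adjusted p = 7.57e-06, edgeR). Nr4a1 averaged 13.2 ± 1.14 CPM in KO naive and 24.4 ± 2.73 in KO thymus libraries (log2 fold change -0.89 against -2.71 ± 0.19 in WT, adjusted p = 9.24e-06). Ikzf2 was at 368 ± 56.7 in KO naive and 668 ± 31.5 in KO thymus libraries (-0.86 against -3.17 ± 0.24, adjusted p = 3.83e-05), and Sidt1 at 564 ± 8.52 and 169 ± 17.6 CPM (1.74 against 2.87 ± 0.10, adjusted p = 1.25e-08). Itga6 changed by 0.12 in KO and 0.92 ± 0.11 in WT (adjusted p = 7.93e-04). Of the egress genes, S1pr1 changed by 0.83 in KO against 1.08 ± 0.09 in WT and Klf2 by 0.79 in KO against 1.04 ± 0.14 in WT, with no difference called (adjusted p = 0.269 and 0.511). A larger change in KO was seen for Ezh2 (-2.53 against -1.77 ± 0.12, adjusted p = 0.00373) and for Cdkn2c (-3.60 against -1.85 ± 0.29, adjusted p = 0.0103).

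**Figure D5:**
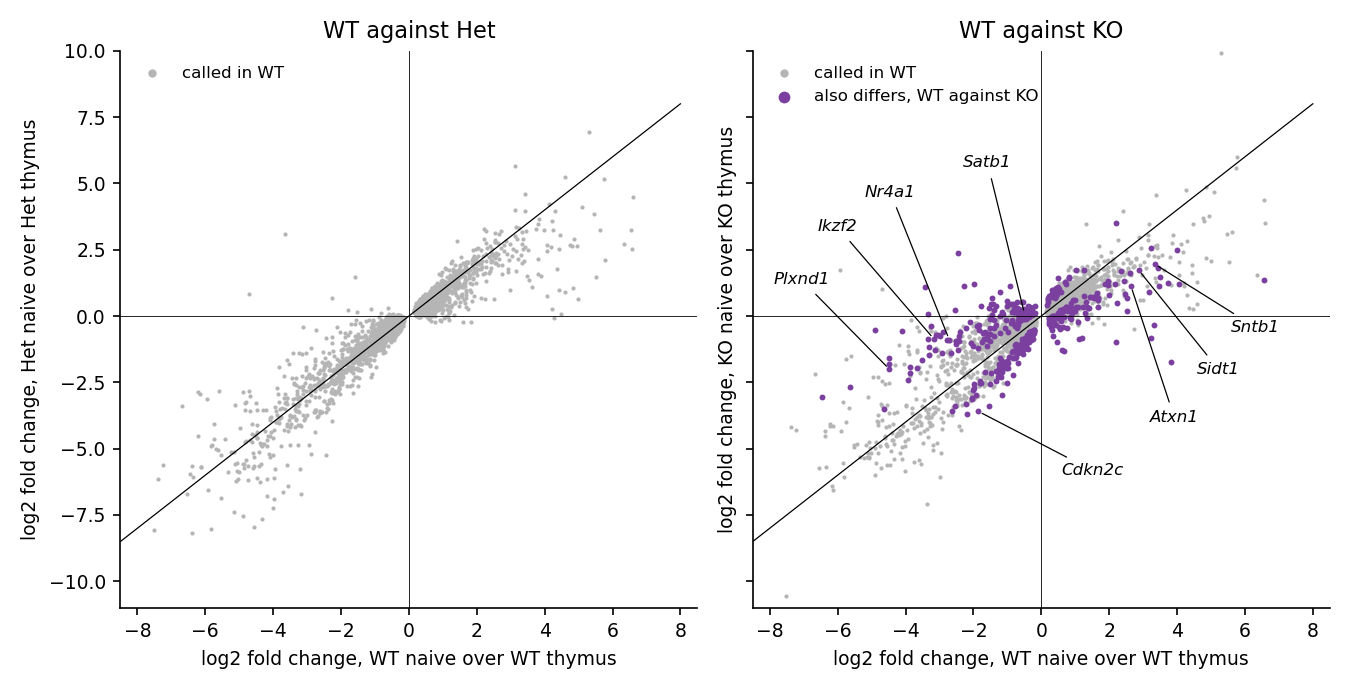
Log2 fold change of naive over thymus libraries in Het (left) and KO (right) on the y axis against that in WT on the x axis, for the 3319 genes called in WT, with the line of equal change. In the right panel the genes whose contrasts differ between WT and KO are purple, and Ikzf2, Nr4a1, Plxnd1 and Satb1 lie nearer 0 in KO.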

How the data were processed

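Polyadenylated RNA was sequenced with a strand-specific TruSeq kit on a HiSeq2500 (single reads of 65 bases), per the labels' protocols. The submitters' processing notes name HTSeq 0.9.1, TopHat2 2.1.0 and TopHat, with the builds GRCm38 and mm10; the strand setting and annotation release are not given in the sources used here. The authors deposited raw counts, whole numbers of reads per gene, for 52636 genes in 35 libraries, of which 19776 had a count; GENCODE M21 named 52489. In R 4.3.3, edgeR 4.0.16 fitted a robust quasi-likelihood model to all 35 libraries in 9 groups (26 residual degrees of freedom), after filterByExpr (10296 genes) and TMM scaling (factors 0.927 to 1.07). The Benjamini-Hochberg adjustment of the two-sided p-values ran over the 10296 genes, and calls used 0.05. Intervals and floors cover counting error only.

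On simulated data for WT naive over WT thymus (10296 genes), 96% of 50 genes changed by a log2 of 1, and 56% of 50 changed by 0.5, were recovered, and 6 unchanged genes were called (0.0594%). The changed genes were drawn only from genes with a mean CPM above a floor, so the recovery rates do not cover genes of few counts. Chi-square per gene between libraries of a group showed none counted again. Named genes were 24 key genes, the 12 most raised and 12 most lowered called genes whose library values did not overlap and whose log2 CPM averaged 2 or more (no predicted models or receptor segments), and up to 6 members of each list with the lowest adjusted p besides members whose role is the list's subject. The members and lists were chosen with earlier results of these data known. A few genes of the lists are counted in them but not reported here by name. Promoters of S1pr1, Klf2 and Rag1 were sought, and 2 of 3 matched: the letters searched as the KLF motif (17.6% of promoters, either strand) were not in the Klf2 window. Their lack describes those letters alone and says nothing of other forms of a KLF site. Alternatives were RLE scaling, mean log centring, no filter or a stricter one (3 libraries at 1 CPM or more), non-robust estimation, the 7 libraries alone, DESeq2 1.42.0, a replicate block, sex as a covariate, a log2 fold change of at least 1, and each replicate left out.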

Additional observations from a re-analysis of the deposited data

Results flagged for a closer look

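In each of 160 named genes the highest or lowest of the 4 naive libraries was set against the spread of the others, and 13 stood apart by a gap that chance gives in about 1 of 20 groups. At that rate some of the 160 stand apart by chance alone, so no single gene below is shown to differ. Naive replicate 3 was the highest library for Rag1 (0.0947 CPM), Runx3 (40.1), Notch3 (0.663), Rrm2 (5.78), Uhrf1 (1.04) and Mycn (0.189 CPM). Naive replicate 4 alone held a count of Cdc6, Cdk1 and Cenpf, at 0.105 CPM each. For these 3 genes and Rag1, and for Mycn, the other naive libraries were at 0, so the gap was set by the counts of 1 library and shows no departure beyond counting. Naive replicate 2 stood apart for March3 (23.1 CPM) and Dusp4 (0.511 CPM), and naive replicate 1 for Ptpn6 (314.0 CPM) and Mcl1 (225 CPM).

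The test of the difference between contrasts called 33 of the 160 named genes, and 653 (6.34%) of all 10296 genes tested. In these 33 the naive over thymus change differed between WT and KO libraries. Many named genes were chosen by their change in WT, so their count is no rate to compare. Values are the WT change minus the KO change on the log2 scale. Among genes lower in WT naive cells, the difference was -1.54 for Sox4, -0.56 for Satb1, -1.83 for Nr4a1, -2.31 for Ikzf2, -2.47 for Plxnd1, -2.96 for Notch3, -1.13 for Ptprf, -0.59 for Itgal, -1.32 for Itm2a, -2.88 for Bmf, -2.29 for Bhlhe40, -0.41 for Ikzf3, -0.64 for Abcg1 and -1.87 for Rsad2. It was above 0 for Ezh2 (0.77), Cdkn2c (1.75), Mcm5 (0.58), Mcm2 (0.46) and Lmnb1 (0.76), which fell further in KO. Among genes higher in WT naive cells it was 1.01 for Eomes, 1.48 for Cd55, 1.39 for Sntb1, 0.69 for Tent5a, 1.13 for Sidt1, 1.51 for Atxn1, 0.80 for Itga6, 4.03 for Ms4a4c and 0.51 for Srebf2, and below 0 for Tcf7 (-0.41), Gimap6 (-0.97), Foxp1 (-0.30), Tob1 (-0.71) and Cdkn1b (-0.60), which rose further in KO. The values of Ms4a4c, Notch3 and Bmf are less certain. As given above, Ms4a4c had few WT thymus counts, Notch3 few WT naive counts and Bmf low counts.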

How the results depend on the processing

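Counts of called genes kept within 1.5 times of the reported value under every alternative except the threshold of 1 on the log2 fold change. That left 1038 WT genes (389 higher, 649 lower), 1157 in Het, 1156 in KO and 171 for the difference between WT and KO. Leaving out each replicate in turn gave 2710 (without thymus replicate 3) to 3142 called genes (without naive replicate 1), with 1229 to 1449 higher and 1481 to 1693 lower, and 461 to 622 for the WT and KO difference. Deviations of equally numbered naive and thymus libraries from their group means correlated at 0.154, 0.195 and -0.124 in WT, 0.00673 to 0.269 in Het and 0.0542 to 0.262 in KO; not all were over 0.1, the labels name no shared animal, and the sex marker Xist matched in all but WT replicate 3. The replicate block gave 1600 higher and 1787 lower genes over all libraries and 1444 and 1691 in the 7 alone, and 841 genes for the WT and KO difference. Mean log centring moved the median of all genes by 0.05 and gave 1878 higher and 1436 lower genes. Of 160 tested named genes 154 were called and 137 had the same result in every alternative; of 2700 gene and alternative pairs 2621 were unchanged in direction and call, 63 lost the call, 6 gained it and 10 changed sign. The sign changes were of genes near 0 that were not called. Myc was at -0.009 with RLE scaling, -0.018 with no filter, -0.005 in the 7 libraries, -0.01 with DESeq2 and -0.023 with the replicate block in the 7, and ran from -0.146 to 0.157 without single replicates. Mcl1 was at 0.034 with centring and 0.042 without naive replicate 1, and at -0.054 to 0.042 without single replicates. The cause was not tested. Genes of a few counts limit the precision, and the shallowest naive library had 4809509 counts.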

Other observations

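Genes of cytosolic ribosomal proteins, a family chosen after its values were seen, were higher in naive cells in 67 of 80 tested and lower in 0, with a median log2 fold change of 0.65. Their summed level was 79200 to 93900 CPM in WT naive and 46940 to 59350 CPM in WT thymus libraries, and the groups did not overlap. In Het mice 53 were higher and 1 lower, and in KO mice 46 and 1.

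Clustered histone genes, also chosen after their values were seen, were lower in 43 of 45 tested and higher in 0, with a median of -3.13. Their summed level was 1577 to 2190 CPM in WT naive and 7826 to 12160 CPM in WT thymus libraries. Over 5 equal groups of tested genes by exon length, shortest first, the median log2 fold change was 0.076, -0.001, 0.006, 0.02 and 0.041.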
